A study of Mus musculus with 8 samples.

Results

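The genes described here encode the core enzymes that carry fatty acids into mitochondria and break them down there: Cpt1b, Cpt2, Acadvl, Acadl, Acadm, Acads, Hadha, Hadhb, Acaa2 and Etfdh. They were chosen by name as a pathway, with no rule on their measured values but with earlier results of these data known. Each was represented by the probe sets annotated to its symbol alone. Of the 10 named genes, 9 were measured, by 16 of the 45101 probe sets on the array. They are 9 of the 18193 genes measured in all. The probe set that holds Cpt1b, the muscle form of carnitine palmitoyltransferase 1, is annotated to 3 genes, so no value is given for it. Where a gene had several probe sets, the one with the highest mean log2 intensity over the 8 arrays leads.

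Long-chain fatty acids enter mitochondria as carnitine esters, made at the outer membrane by carnitine palmitoyltransferase 1 and turned back into acyl-CoA inside by carnitine palmitoyltransferase 2, the product of Cpt2. Each round of beta-oxidation then starts with an acyl-CoA dehydrogenase matched to chain length (Acadvl for very long, Acadl for long, Acadm for medium and Acads for short chains) and goes on through the trifunctional protein (Hadha and Hadhb) and a thiolase (Acaa2). Electrons from the dehydrogenases pass through the electron transfer flavoprotein to its dehydrogenase, Etfdh, an iron-sulfur flavoprotein that reduces ubiquinone. Skeletal muscle uses this pathway as a main source of energy at rest, and PGC-1α, a transcriptional coactivator that partners with nuclear receptors, is known for raising it.

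RNA came from C2C12, an established mouse myoblast line, kept for 3 days in 2% serum to form multinucleated myotubes and then for 3 more days after infection. The 4 groups, with 2 biological duplicates each by the design text, were GFP-PGC-1α adenovirus with 100 µM deferoxamine (DFO, an iron chelator), GFP-PGC-1α adenovirus without it, GFP adenovirus with 100 µM DFO, and GFP adenovirus alone. All groups therefore carried an adenovirus and GFP, and the PGC-1α was a GFP-tagged overexpressed protein in 1 cell line. The share of cells infected is not stated. No untreated, uninfected cells were analysed here.

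The deposited values were probe-set intensities on a linear scale. Array medians over all probe sets lay between 59.45 and 62.82. The log2 intensities of duplicates correlated with r of 0.942 to 0.962 across all probe sets, which are not independent replicates. Ppargc1a, the gene that encodes PGC-1α, read 7930.3 and 7710.5 in GFP-PGC-1α+DFO myotubes and 7211 and 7036 in GFP-PGC-1α myotubes, against 26.6 and 88.1 in GFP+DFO myotubes and 28.6 and 37.3 in GFP myotubes. The summed intensity of 6 myotube markers was 8417 to 8826 in GFP-PGC-1α+DFO, 28965 to 29079 in GFP-PGC-1α, 14028 to 14231 in GFP+DFO and 35069 to 37358 in GFP myotubes. Sums for 6 markers of undifferentiated myoblasts were 1344 to 1636, 1737 to 1835, 1223 to 1235 and 1533 to 1643 in the same order of groups. Sums for 5 measured adipocyte markers stayed between 81.8 and 236, and for 3 osteoblast markers between 172 and 317, with no marker at 0. Scaling to poly-A spike-in probe sets moved the median log2 change of all genes in GFP-PGC-1α+DFO against GFP+DFO to 0.45, where it was -0.05 as deposited, and in GFP-PGC-1α+DFO against GFP-PGC-1α to 0.36, where it was 0.01. Changes are given on the scale as deposited.

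The genome sequence just around the start sites of the genes is shown first, since most of these genes rose with a transcriptional coactivator. Windows of 250 bases before to 50 bases after the RefSeq (GRCm38.p6) start were examined for 8 of the 10 genes, leaving out Cpt1b and Acaa2. Of these, 4 are printed, each 5′ to 3′ on the strand of its gene. They are chr11:70015379-70015678 on the minus strand for Acadvl, chr3:153944594-153944893 on the minus strand for Acadm, chr3:79628718-79629017 on the minus strand for Etfdh, and chr5:30154931-30155230 on the minus strand for Hadha. Acadvl, Acadm and Etfdh were chosen because they hold the hexamer AGGTCA, which nuclear receptors recognise, or GCGCATGCG, part of the site of nuclear respiratory factor 1. Capitals in these 3 windows mark matches to either motif on either strand. Hadha was chosen because it and Hadhb, which encode the 2 subunits of 1 enzyme, lie head to head with starts 273 bases apart. Capitals in its window mark the 228 bases that the Hadhb window also covers.
Acadvl: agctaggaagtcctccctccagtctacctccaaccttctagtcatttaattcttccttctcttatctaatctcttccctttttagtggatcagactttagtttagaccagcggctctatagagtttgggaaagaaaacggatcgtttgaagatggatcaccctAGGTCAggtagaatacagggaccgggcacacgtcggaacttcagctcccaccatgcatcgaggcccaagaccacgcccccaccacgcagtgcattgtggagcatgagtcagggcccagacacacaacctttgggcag
Acadm: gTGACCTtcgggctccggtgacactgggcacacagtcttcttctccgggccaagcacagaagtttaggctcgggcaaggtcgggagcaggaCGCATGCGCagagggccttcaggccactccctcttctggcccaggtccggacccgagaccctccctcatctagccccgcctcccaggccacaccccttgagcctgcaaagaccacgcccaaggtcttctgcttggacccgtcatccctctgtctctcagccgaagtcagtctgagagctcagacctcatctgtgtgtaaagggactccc
Etfdh: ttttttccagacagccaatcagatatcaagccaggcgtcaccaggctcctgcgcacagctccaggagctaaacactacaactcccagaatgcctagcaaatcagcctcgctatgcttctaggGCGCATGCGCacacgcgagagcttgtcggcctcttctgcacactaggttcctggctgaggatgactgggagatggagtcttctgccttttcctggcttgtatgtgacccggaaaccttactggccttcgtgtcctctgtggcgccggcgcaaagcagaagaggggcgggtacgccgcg
Hadha: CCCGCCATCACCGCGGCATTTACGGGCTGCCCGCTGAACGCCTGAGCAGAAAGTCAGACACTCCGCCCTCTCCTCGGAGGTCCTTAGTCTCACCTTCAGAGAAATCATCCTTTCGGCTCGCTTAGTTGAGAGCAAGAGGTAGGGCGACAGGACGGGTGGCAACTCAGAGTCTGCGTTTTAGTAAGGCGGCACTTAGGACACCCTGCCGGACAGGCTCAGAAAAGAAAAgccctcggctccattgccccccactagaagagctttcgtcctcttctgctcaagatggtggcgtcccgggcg

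Both strands of the windows were searched for 5 motifs. AGGTCA was in 2 of 8 windows (Acadm and Acadvl) and in 16.3% of all 32851 windows of this length. The longer TCAAGGTCA, which contains AGGTCA and is the element of the oestrogen-related receptors, was in 0 of 8 and in 0.423% of all. GCGCATGCG was in 2 of 8 (Acadm and Etfdh) and in 1.75% of all. The Ets core GGAAG was in 3 of 8 (Acads, Acadvl and Cpt2) and in 71.4% of all, and ACGTG, the core of the hypoxia response element, in 1 of 8 (Acadvl) and in 19.6% of all. Cpt1b and Acaa2 were not searched, so these counts do not cover all 10 genes. The matches are of letters, and binding was not measured.

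The first comparison asks what PGC-1α did to these genes in myotubes without the chelator. With GFP-PGC-1α, 8 of the 9 measured genes rose relative to GFP and none fell, with a median log2 change of 1.02 over the 9. The array as a whole had a median of -0.08, and 4.96% of all genes rose (limma, adjusted p under 0.05). The 9 genes were all higher on both GFP-PGC-1α arrays than on both GFP arrays. The share of all genes with such a separation was not computed, so this count is a description only. Increases ran between 1.68-fold for Cpt2 and 2.92-fold for Acadvl among the called genes.

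Cpt2, at the entry step, read 604 and 637 in GFP-PGC-1α myotubes, against 344 and 395 in GFP myotubes, a log2 change of 0.75 ± 0.12 (SE, n = 2 each, limma adjusted p = 0.0205). Acadvl, the dehydrogenase of very long chains, read 3559 and 3709 in GFP-PGC-1α, against 1180.0 and 1313 in GFP myotubes, and its log2 change of 1.55 ± 0.10 (limma adjusted p = 0.00279) was the highest of the 9. Acadl, the long-chain enzyme, read 4416 and 4501 in GFP-PGC-1α, against 3574 and 3351 in GFP myotubes. Acadl was the gene that did not pass: its log2 difference was 0.37 ± 0.08, with a 95% interval of 0.16 to 0.57 and limma adjusted p = 0.0540. Acadm, the medium-chain enzyme, read 4251 and 4244 in GFP-PGC-1α, against 1857 and 1786 in GFP myotubes (log2 change 1.22 ± 0.08, limma adjusted p = 0.00274). Acads, the short-chain enzyme, read 1130 and 1165 in GFP-PGC-1α, against 525 and 501 in GFP myotubes (log2 change 1.16 ± 0.08, limma adjusted p = 0.00286). Among the dehydrogenases, then, groups were apart at every chain length, and the difference was smallest for Acadl.

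The trifunctional protein's alpha subunit, Hadha, read 2729 and 2928 in GFP-PGC-1α, against 1505 and 1363 in GFP myotubes, a log2 change of 0.98 ± 0.10 (limma adjusted p = 0.00676). Its partner Hadhb read 4669 and 4164 in GFP-PGC-1α, against 2475 and 2300.0 in GFP myotubes, with a log2 change of 0.89 ± 0.18 (limma adjusted p = 0.0414). The subunits thus rose by similar amounts. Acaa2, the thiolase, read 2004 and 1971 in GFP-PGC-1α, against 976 and 980.5 in GFP myotubes (log2 change 1.02 ± 0.08, limma adjusted p = 0.00434). Etfdh read 3030.25 and 3239 in GFP-PGC-1α, against 1283 and 1252 in GFP myotubes (log2 change 1.31 ± 0.08, limma adjusted p = 0.00268). An exact permutation test of 2 arrays against 2 cannot go below a two-sided p of 0.333, so these p-values rest on the spread that limma pools over groups and genes. Fitted on the arrays of these 2 groups alone, 0 of the 9 passed in limma (adjusted p = 0.0667 to 0.144), with 9 at an unadjusted p under 0.05. Of all 18193 genes, 0 passed in that fit, so it does not set these 9 apart. The number of genes called was 5 without the GFP-PGC-1α replicate 1 array. The calls of Cpt2 and Hadhb each ended without any 1 of 6 arrays (the GFP-PGC-1α, GFP+DFO and GFP arrays), with adjusted p up to 0.103 and 0.179, and that of Hadha without GFP-PGC-1α replicate 1 (adjusted p = 0.0505).

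**Figure D1:**
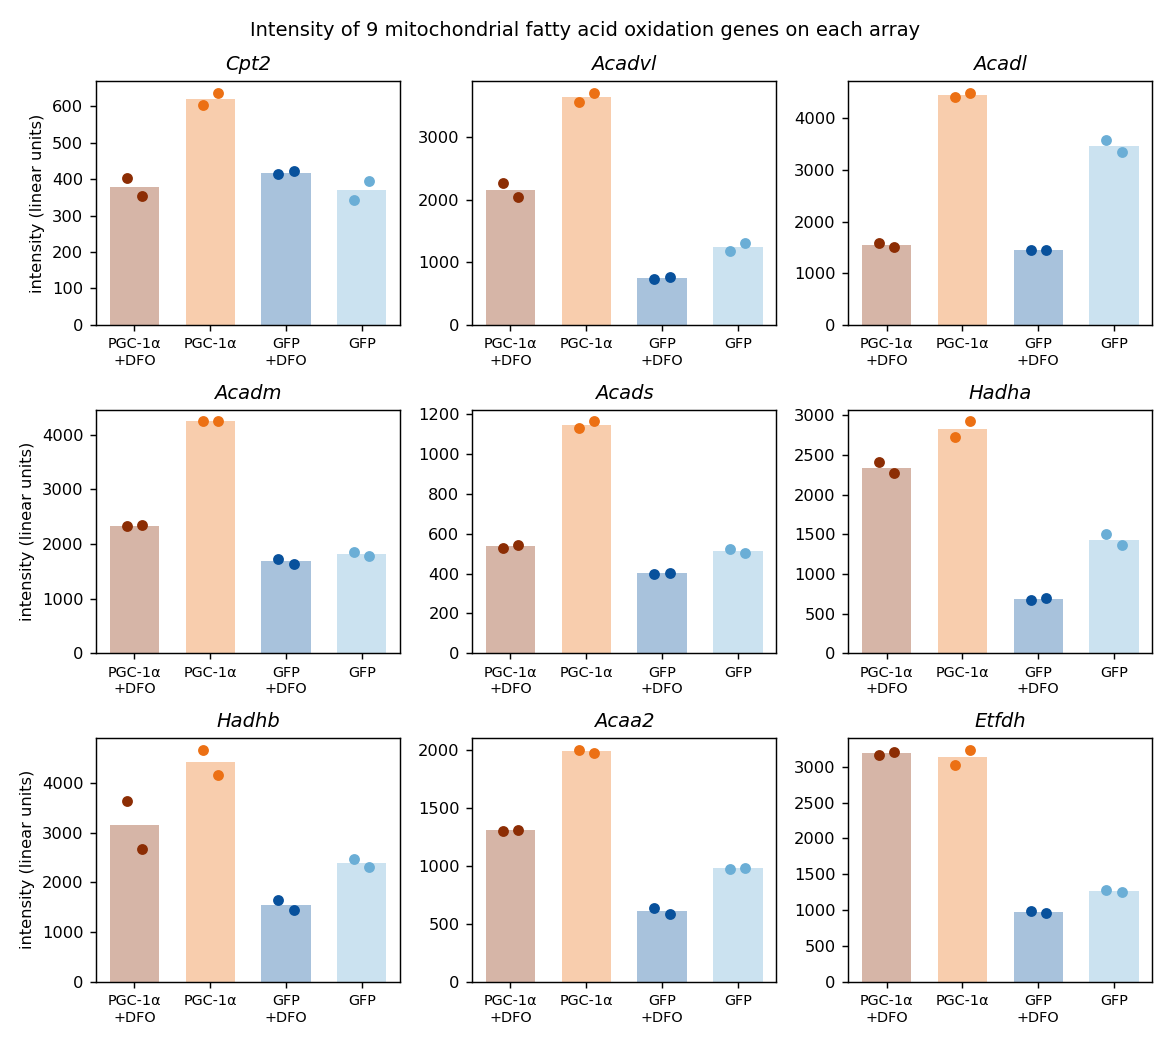
Deposited intensity (linear units, axes from 0) of the 9 measured genes on each array (points) with the group mean (bars), for GFP-PGC-1α+DFO, GFP-PGC-1α, GFP+DFO and GFP myotubes, 2 arrays each. GFP-PGC-1α without DFO is the highest group for 8 genes, and for Etfdh both GFP-PGC-1α groups lie together, with no array under 3030.25.

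The same comparison was then made under iron chelation. With DFO, GFP-PGC-1α myotubes had higher levels than GFP myotubes for 7 of the 9 genes (Acadvl, Acadm, Acads, Hadha, Hadhb, Acaa2 and Etfdh), and none was called lower. The median log2 change of the 9 was 1.01, where that of all genes was -0.05, and 6.93% of all genes rose. The genes differed in how large the difference was. Hadha read 2413 and 2271 in GFP-PGC-1α+DFO, against 672 and 703 in GFP+DFO myotubes, a log2 change of 1.77 ± 0.10 (limma adjusted p = 0.00100). Etfdh read 3168 and 3205 in GFP-PGC-1α+DFO, against 985 and 957 in GFP+DFO myotubes, a log2 change of 1.71 ± 0.08 (limma adjusted p = 0.000776). Acadvl read 2266 and 2042 in GFP-PGC-1α+DFO, against 735 and 757 in GFP+DFO myotubes, a log2 change of 1.53 ± 0.10 (limma adjusted p = 0.00136). The groups were thus 3.41-fold apart for Hadha, 3.28-fold for Etfdh and 2.88-fold for Acadvl.

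Acaa2 read 1304 and 1308 in GFP-PGC-1α+DFO, against 635 and 587 in GFP+DFO myotubes (log2 change 1.10 ± 0.08, limma adjusted p = 0.00171). Hadhb read 3636 and 2660.5 in GFP-PGC-1α+DFO, against 1647 and 1441 in GFP+DFO myotubes (log2 change 1.01 ± 0.18, limma adjusted p = 0.0185), and its duplicates with the construct were the farthest apart. The medium- and short-chain dehydrogenases had smaller differences. Acadm read 2326 and 2340.0 in GFP-PGC-1α+DFO, against 1723 and 1642 in GFP+DFO myotubes (log2 change 0.47 ± 0.08, limma adjusted p = 0.0155). Acads read 529.8 and 544 in GFP-PGC-1α+DFO, against 399 and 404 in GFP+DFO myotubes (log2 change 0.42 ± 0.08, limma adjusted p = 0.0219). Neither of these groups of arrays overlapped.

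The other two genes did not pass the test. Cpt2 read 404 and 354 in GFP-PGC-1α+DFO, against 413 and 422 in GFP+DFO myotubes, a log2 difference of -0.14 ± 0.12 (95% interval -0.43 to 0.15, limma adjusted p = 0.469). Acadl read 1581 and 1507 in GFP-PGC-1α+DFO, against 1449 and 1447 in GFP+DFO myotubes, a log2 difference of 0.09 ± 0.08 (95% interval -0.11 to 0.30, limma adjusted p = 0.517). With spike-in scaling the difference of Cpt2 turned to 0.36, where the median of all genes was 0.45. The number of genes called was 4 in a fit of these 2 groups alone, where 861 of all 18193 genes were called. It was also 4 without either GFP+DFO array, where Acadm, Acads and Hadhb were no longer called (adjusted p up to 0.108, 0.135 and 0.107). The call of Acads also ended without GFP-PGC-1α+DFO replicate 2 or either GFP-PGC-1α array.

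**Figure D2:**
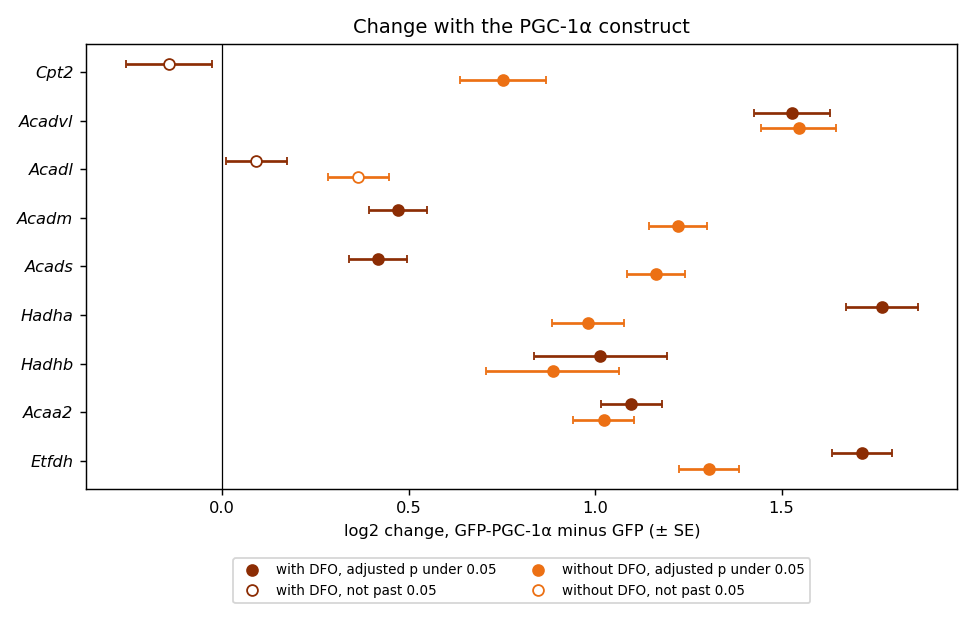
Log2 change with the GFP-PGC-1α construct (x axis, points ± SE from limma) for each gene, with DFO (dark) and without DFO (orange), filled where the adjusted p was under 0.05. Acadvl, Hadhb and Acaa2 have nearly the same change in both conditions, Hadha and Etfdh a larger one with DFO, and Cpt2, Acadm and Acads a smaller one with DFO.

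Most of the genes were lower with DFO, whichever virus the cells had received. In GFP myotubes DFO lowered 6 of the 9 (Acadvl, Acadl, Acads, Hadha, Acaa2 and Etfdh) and raised none, with a median log2 change of -0.63 against -0.02 for all genes. Of all genes, 12.5% fell in this comparison. In GFP-PGC-1α myotubes DFO also lowered 6 (Cpt2, Acadvl, Acadl, Acadm, Acads and Acaa2) and raised none, with a median of -0.72 against 0.01, where 14.2% of all genes fell. The 6 myotube markers moved with DFO too: 5 were called lower in GFP and 6 in GFP-PGC-1α myotubes, with the sums given above. Acta1, the brightest of the 6 on every array, had the smallest change (-0.26 in GFP and -0.77 in GFP-PGC-1α myotubes). Myog had the largest (-5.08 and -6.30). With the construct under DFO, 4 of these markers were called lower and 1 higher, where 3446 of all genes were called, 36.6% of them higher. Of 6 myoblast markers, Id1 was called higher (1.05) and Myf5 lower (-3.26) with DFO in GFP-PGC-1α myotubes, and Id1 (0.50) and Ccnd1 (0.52) higher and Myf5 (-1.83) and Id3 (-1.92) lower in GFP myotubes. The 5′ to 3′ intensity ratio of the actin control probe sets was 0.753 and 0.811 in GFP-PGC-1α+DFO myotubes, 0.919 and 0.897 in GFP-PGC-1α, 0.868 and 0.859 in GFP+DFO, and 0.921 and 0.898 in GFP myotubes. The part of any of these in the changes was not tested. In bulk RNA, fewer cells of a type and less RNA per cell cannot be told apart.

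Acadl had the largest fall of the 9 with either virus, as read by its leading probe set. Its intensities of 1449 and 1447 in GFP+DFO against 3574 and 3351 in GFP myotubes gave a log2 change of -1.26 ± 0.08 (limma adjusted p = 0.000644). Those of 1581 and 1507 in GFP-PGC-1α+DFO against 4416 and 4501 in GFP-PGC-1α myotubes gave -1.53 ± 0.08 (limma adjusted p = 0.000322). The levels with DFO were 0.346 times those without it in GFP-PGC-1α and 0.418 times in GFP myotubes, and the arrays with GFP-PGC-1α+DFO lay below both GFP arrays without DFO. With the mean of its bright and its dim probe set Acadl was not called, at -1.11 in GFP-PGC-1α (limma adjusted p = 0.135) and -0.48 in GFP myotubes (limma adjusted p = 0.509). Acadvl and Acaa2 fell by amounts that were close with both viruses. Acadvl had -0.76 ± 0.10 in GFP-PGC-1α myotubes (limma adjusted p = 0.00529) and -0.74 ± 0.10 in GFP myotubes (limma adjusted p = 0.00599). Acaa2 had -0.61 ± 0.08 in GFP-PGC-1α myotubes (limma adjusted p = 0.00533) and -0.68 ± 0.08 in GFP myotubes (limma adjusted p = 0.00389). In these 2 genes the level with DFO was between 0.592 and 0.657 times that without it.

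Other genes were called in 1 background. Hadha fell in GFP myotubes (-1.06 ± 0.10, limma adjusted p = 0.00173), while in GFP-PGC-1α myotubes its log2 difference was -0.27 ± 0.10 (limma adjusted p = 0.104). Etfdh fell in GFP myotubes (-0.38 ± 0.08, limma adjusted p = 0.0239), while in GFP-PGC-1α myotubes the difference was 0.02 ± 0.08 (limma adjusted p = 0.865) and the arrays overlapped. Cpt2 and Acadm went the other way round. Cpt2 fell in GFP-PGC-1α myotubes (-0.72 ± 0.12, limma adjusted p = 0.00969), with a difference of 0.18 ± 0.12 in GFP myotubes (limma adjusted p = 0.338). Acadm fell in GFP-PGC-1α myotubes (-0.86 ± 0.08, limma adjusted p = 0.00147), with -0.11 ± 0.08 in GFP myotubes (limma adjusted p = 0.369). Acads was called in both, at -1.10 ± 0.08 in GFP-PGC-1α (limma adjusted p = 0.000727) and -0.35 ± 0.08 in GFP myotubes (limma adjusted p = 0.0285). Hadhb had -0.50 ± 0.18 in GFP-PGC-1α and -0.63 ± 0.18 in GFP myotubes and passed in neither (limma adjusted p = 0.103 and 0.0581). A call in 1 background alone is not a difference between backgrounds, which the interaction below tests.

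In GFP myotubes 3 genes were called without GFP+DFO replicate 1, where Acadvl (adjusted p = 0.0503), Acads and Etfdh were lost. The calls of Acads (adjusted p up to 0.149) and Etfdh (up to 0.138) also ended without GFP+DFO replicate 2 or either GFP array, and that of Acads without either GFP-PGC-1α array. In GFP-PGC-1α myotubes the call of Cpt2 ended without GFP-PGC-1α replicate 2 (adjusted p = 0.0550). With scaling to spike-ins the count in GFP-PGC-1α myotubes was 3, and in GFP myotubes 4. Of all 18193 genes, 4350 and 2920 were called there in either direction. With the Trpn spike-ins left out, a choice made after seeing the data, the counts were 1 and 3, against 4201 and 2230 of all genes. A fit of the GFP-PGC-1α+DFO and GFP-PGC-1α arrays alone called 3 of the 9, and 1942 of all 18193 genes.

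**Figure D3:**
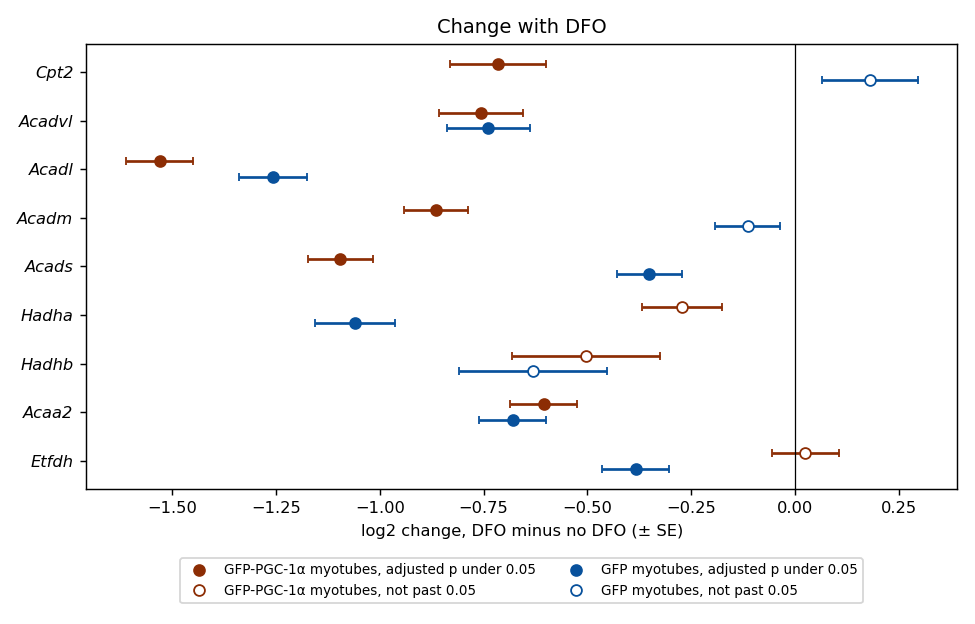
Log2 change with DFO (x axis, points ± SE from limma) for each gene in GFP-PGC-1α myotubes (brown) and in GFP myotubes (blue), filled where the adjusted p was under 0.05. Acadl lies farthest to the left in both, and Cpt2, Acadm and Acads lie farther left in GFP-PGC-1α myotubes, where Hadha and Etfdh lie farther right.

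Whether the effect of the construct differed with and without DFO was tested by the interaction, the change with the construct under DFO minus that without DFO. None of the 9 genes passed in limma, where 0.555% of all genes did. At an unadjusted p under 0.05 there were 5 of 9, against 17.4% of all genes. The 5 were of both signs. The change with the construct was lower under DFO for Cpt2 (-0.90 ± 0.16, limma adjusted p = 0.0919), Acadm (-0.75 ± 0.11, limma adjusted p = 0.0667) and Acads (-0.74 ± 0.11, limma adjusted p = 0.0670). It was higher for Hadha (0.79 ± 0.14, limma adjusted p = 0.0854) and Etfdh (0.41 ± 0.11, limma adjusted p = 0.175). Cpt2, Acadm, Acads and Hadha passed under 3 of the 19 alternative settings of the fit, and Etfdh under 2. For Acadvl the interaction was -0.02 with a 95% interval of -0.38 to 0.34, for Acaa2 0.07 with -0.22 to 0.36, and for Hadhb 0.13 with -0.51 to 0.76. Acadl had -0.27 with an interval of -0.57 to 0.02.

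Against GFP myotubes, the GFP-PGC-1α+DFO myotubes had 5 of the 9 genes higher and 1 lower, where 13.5% of all genes were higher and 18.3% lower. The comparison shares its arrays with those above. Higher were Etfdh (1.33 ± 0.08, limma adjusted p = 0.000306), Acadvl (0.79 ± 0.10, limma adjusted p = 0.00339), Hadha (0.71 ± 0.10, limma adjusted p = 0.00418), Acaa2 (0.42 ± 0.08, limma adjusted p = 0.0142) and Acadm (0.36 ± 0.08, limma adjusted p = 0.0211). Acadl was lower (-1.17 ± 0.08, limma adjusted p = 0.000462), but not called with the mean of its probe sets (-0.30, limma adjusted p = 0.671). Hadhb (0.38 ± 0.18), Acads (0.07 ± 0.08) and Cpt2 (0.04 ± 0.12) did not pass, with limma adjusted p = 0.175, 0.579 and 0.852. For Hadhb this holds for the leading probe set. A second bright one was called higher in a fit of all probe sets (0.76 ± 0.09, limma adjusted p = 0.00316). The mean of its probe sets was called higher too (0.61, limma adjusted p = 0.0194). Cpt2 was the gene whose arrays overlapped between these groups. With spike-in scaling all 9 were called, 8 higher and 1 lower, with Cpt2 at 0.60, Acads at 0.63 and Hadhb at 0.95. That scaling called 7308 of all 18193 genes, 83.9% of them higher. It put the median log2 change of all genes at 0.56, near the values of Cpt2 and Acads. The calls of Acadm (adjusted p up to 0.0823 without GFP-PGC-1α+DFO replicate 2 or either GFP+DFO or GFP array) and Acaa2 (up to 0.0615 without either GFP array) depended on single arrays.

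Across the 4 groups, 6 of the 9 genes (Acadvl, Acadm, Acads, Hadha, Hadhb and Acaa2) had the order GFP-PGC-1α, GFP-PGC-1α+DFO, GFP, GFP+DFO from high to low, and in each of them neighbouring groups did not overlap. GFP-PGC-1α was highest for 8 genes and GFP+DFO lowest for 8. The share of all genes with the same order, or without overlap, was not computed, so these counts are a description only. Acadl put GFP second, above GFP-PGC-1α+DFO, and Cpt2 had its 3 lower groups close together, with GFP-PGC-1α+DFO and GFP overlapping. The log2 levels of each gene were set against the mean of the others over the 8 arrays, as a description, since the points share arrays and groups. Pearson's r was 0.991 for Acaa2, 0.983 for Acadvl, 0.966 for Hadhb, 0.940 for Acadm, 0.936 for Acads, 0.919 for Hadha, 0.832 for Etfdh, 0.662 for Cpt2 and 0.595 for Acadl. The genes most like the mean of the 9, among 9087 genes above the median level, were Fzr1, Dpy30, Mrps35, Opa1, Sdhaf4 and BC003965, with r of 0.996 to 0.997 over the 8 arrays. With the construct without DFO, Fzr1 and Dpy30, which had the highest r, had log2 changes of 0.47 and 0.56. Mrps35, a protein of the mitochondrial ribosome, had 1.45, and Opa1, a fusion protein of the inner mitochondrial membrane, 0.80. Sdhaf4 had 0.83 and BC003965 0.71.

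Several genes had further probe sets, tested in a fit over all probe sets with 1 symbol. A second bright probe set of Hadhb rose with the construct by 1.29 ± 0.09 without DFO and 1.59 ± 0.09 with DFO, and it was called lower with DFO in GFP myotubes (-0.84 ± 0.09, limma adjusted p = 0.00378) and in GFP-PGC-1α myotubes (-0.54 ± 0.09, limma adjusted p = 0.0123). The leading probe set of Hadhb, whose name marks possible cross-hybridisation, had the same directions, and neither of its falls with DFO passed. In this fit its rise with the construct without DFO did not pass either (limma adjusted p = 0.0610). The fall of Acads with DFO in GFP myotubes also did not pass there (limma adjusted p = 0.0524). The other two probe sets of Acaa2 went the same way as the leading one in the single-factor comparisons, but in GFP-PGC-1α+DFO against GFP myotubes they had -0.02 and -0.10 (limma adjusted p = 0.903 and 0.584), where the leading one was called higher. A dim second probe set of Etfdh, at 5.76 to 27.4, was called higher with DFO in GFP myotubes (1.70 ± 0.29, limma adjusted p = 0.0160), opposite to the leading one. The mean of both probe sets had 0.66 in that comparison (limma adjusted p = 0.0404). The second probe set of Acadl was as dim, at 5.69 to 33.6. That of Cpt2, at 64.5 to 210, had no call. With the mean of its probe sets, the rise of Cpt2 with the construct without DFO was not called (0.59, limma adjusted p = 0.223). Its fall with DFO in GFP-PGC-1α myotubes was not called either (-0.87, limma adjusted p = 0.0584).

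Around these enzymes, the lists for the rest of the pathway were chosen with earlier results of these data known. Of the carnitine shuttle, 5 of 6 genes were measured. Cpt1a, the liver form of carnitine palmitoyltransferase 1, rose with the construct (1.26 ± 0.14 with DFO, limma adjusted p = 0.00502, and 0.92 ± 0.14 without, limma adjusted p = 0.0203). None of the 9 enzymes was called higher with DFO, but Cpt1a rose with it, by 0.88 ± 0.14 in GFP-PGC-1α myotubes (limma adjusted p = 0.00944) and 0.55 ± 0.14 in GFP myotubes (limma adjusted p = 0.0442). Its intensities were 879 and 838 in GFP-PGC-1α+DFO, 464 and 470 in GFP-PGC-1α, 338 and 382 in GFP+DFO, and 219 and 277 in GFP myotubes, in groups that did not overlap. Slc25a20, the carnitine-acylcarnitine carrier of the inner membrane, rose with the construct (1.498 ± 0.12 with DFO and 0.98 ± 0.12 without) and fell with DFO in GFP myotubes (-0.49 ± 0.12). Crat, carnitine acetyltransferase, rose with the construct (1.39 ± 0.10 with DFO and 0.94 ± 0.10 without) and fell with DFO (-0.92 ± 0.10 in GFP-PGC-1α and -1.36 ± 0.10 in GFP myotubes). Cpt1c, a related protein of brain, rose with DFO in GFP myotubes (0.66 ± 0.13) and was lower with the construct under DFO (-0.76 ± 0.13). Slc22a5, the plasma membrane carnitine transporter, was not called in any of the 4 single-factor comparisons.

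Of 12 other mitochondrial beta-oxidation enzymes, all measured, 4 rose with the construct under DFO (6.93% of all genes) and 5 without (4.96%), and none fell. Under both conditions these included Echs1, the enoyl-CoA hydratase of short chains (0.96 ± 0.07 with DFO and 1.04 ± 0.07 without), Acad11 (1.28 ± 0.17 and 1.06 ± 0.17), and the electron transfer flavoprotein subunits Etfa (1.24 ± 0.08 and 0.91 ± 0.08) and Etfb (0.85 ± 0.09 and 0.52 ± 0.09). Acad9 was the fifth without DFO (0.53 ± 0.11). With DFO, 9 of the 12 fell in GFP-PGC-1α myotubes (14.2% of all genes) and 8 in GFP myotubes (12.5%), and none rose. Decr1, the dienoyl-CoA reductase for unsaturated chains, had the largest fall in both (-1.56 ± 0.12 in GFP-PGC-1α and -1.66 ± 0.12 in GFP myotubes). Eci1 (-1.06 ± 0.08 and -1.08 ± 0.08), Hsd17b10 (-1.17 ± 0.11 and -0.82 ± 0.11), Hadh (-0.89 ± 0.08 and -0.54 ± 0.08) and Eci2 (-0.49 ± 0.09 and -0.63 ± 0.09) also fell. Decr1, Eci1, Eci2, Hadh and Hsd17b10 were not called with the construct in either condition. Acad10 and Acad12 had no call in the 4 single-factor comparisons.

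**Figure D4:**
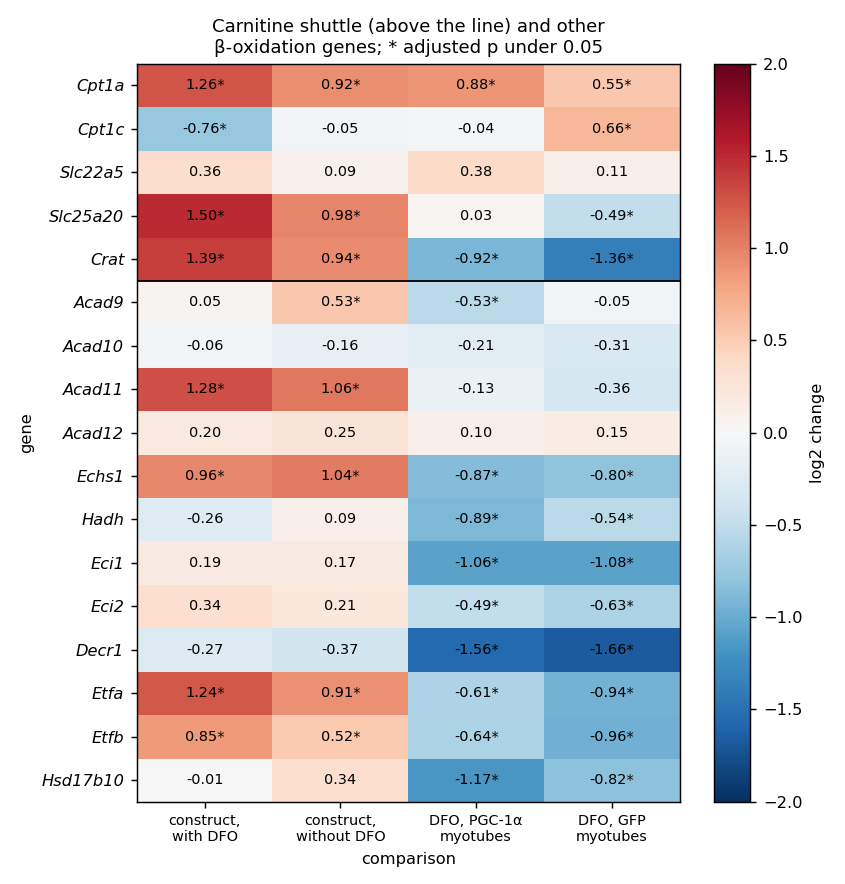
Log2 change (colour scale and printed values) of 5 genes of the carnitine shuttle, above the line, and 12 other beta-oxidation genes, below it, in 4 comparisons, from left to right the construct with DFO, the construct without DFO, DFO in GFP-PGC-1α myotubes and DFO in GFP myotubes. Asterisks mark an adjusted p under 0.05, and Cpt1a is the one gene called higher in all 4 columns.

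The peroxisomal pathway shortens very long chains outside mitochondria. Of 16 of its genes measured, 3 rose and 2 fell with the construct under DFO. Of all 18193 genes, 3446 were called in that comparison, 36.6% of them higher. Without DFO 1 of the 16 rose and none was called lower, where 4.96% of all genes rose. That gene was Phyh, which starts the alpha-oxidation of branched chains. It read 1035 and 1048 in GFP-PGC-1α, against 148 and 190.2 in GFP myotubes (2.63 ± 0.20, limma adjusted p = 0.00396). With DFO in GFP-PGC-1α myotubes 1 rose and 5 fell, where 4662 of all genes were called, 44.6% of them higher. In GFP myotubes 4409 of all genes were called with DFO, 48.5% of them higher. With DFO in GFP myotubes 1 rose, the dienoyl-CoA reductase Decr2 (0.71 ± 0.19, limma adjusted p = 0.0493), and 4 fell, with the largest falls in Amacr, the racemase for branched chains (-1.89 ± 0.09, limma adjusted p = 0.000300) and Phyh (-1.82 ± 0.20, limma adjusted p = 0.00308). Of 3 genes for malonyl-CoA, the inhibitor of carnitine palmitoyltransferase 1, none was called in the 4 single-factor comparisons (lowest limma adjusted p = 0.0801). Among 13 measured regulators, 4 rose and 1 fell with the construct without DFO, where 1770 of all genes were called, 51.0% of them higher. Esrra, an oestrogen-related receptor that partners with PGC-1α, read 1004 and 1144 in GFP-PGC-1α, against 239.6 and 225 in GFP myotubes (2.21 ± 0.10, limma adjusted p = 0.00168), and rose by 2.72 ± 0.10 with DFO (limma adjusted p = 0.000524). Ppara, a fatty acid receptor, had 0.44 ± 0.36 without DFO (limma adjusted p = 0.491) and was not called.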

How the data were processed

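RNA of 8 myotube cultures was hybridised to 1-colour Affymetrix mouse arrays as biotin-labelled cRNA, per the labels' protocols. The authors deposited 1 intensity per probe set and array on a linear scale. The steps of probe summary, background correction and scaling are not given in the sources used here, and 968 to 1082 values per array were exactly 1. No further normalization, pseudocount or filter was applied before taking log2.

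The platform annotation gave 1 gene symbol to 34945 of 45101 probe sets, several to 932 and none to 9160, with 64 control probe sets. Each gene is represented by its brightest probe set with that symbol alone. Group means of the 18193 genes were fitted with limma 3.58.1 (R 4.3.3) on all 8 arrays, with 4 residual and 1.30 prior degrees of freedom and default eBayes. p-values are two-sided, Benjamini-Hochberg adjusted over all genes of a comparison and called at 0.05. Errors are limma's SE, and 95% intervals come from the same fit. The number of arrays limits the precision. The procedure was tested on simulated data.

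The genes described and the lists around them were chosen with earlier results of these data known. Named were all 10 enzymes, the carnitine shuttle and other beta-oxidation lists, Ppargc1a, Esrra and Ppara, up to 2 rises and 2 falls of the peroxisomal list, the 6 genes most like the mean of the enzymes, and further probe sets that differed. Ppargc1a, Phyh, Esrra and Cpt1a are given per array. Promoter windows are those of RefSeq (GRCm38.p6). Alternatives were quantile normalization, median centring, spike-in scaling, the mean of probe sets, every probe set on its own, and leaving out _x_at and _s_at probe sets. Further alternatives were genes above the median, a floor at the 25th percentile, trend and robust eBayes, and fits of the compared groups. The last were a 2-fold minimum, a replicate block and each array left out. Spike-in scaling without the Trpn probe sets was added after seeing the data.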

Additional observations from a re-analysis of the deposited data

How the results depend on the processing

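Counts of the 9 genes called moved as follows, with the count over all genes, in either direction, in brackets where given. With spike-in scaling DFO in GFP-PGC-1α myotubes had 3 genes called (4350 of 18193). Without the Trpn probe sets it had 1 (4201), where DFO in GFP myotubes had 3 (2230). The interaction had 5 among genes above the median level (1316 of 9096), 4 with a floor (448 of 18193) and 5 with trend and robust eBayes (1467 of 18193). In the fit used above it had 0 (101 of 18193), so the count over all genes rose too. Fitting only the groups compared gave 0 for the construct without DFO (0 of 18193), with 9 at an unadjusted p under 0.05 in limma. It gave 4 for the construct with DFO (861) and 3 for DFO in GFP-PGC-1α myotubes (1942). Requiring 2-fold left 5 for the construct without DFO (543 of 18193) and 2 for GFP-PGC-1α+DFO against GFP (2501). For DFO it left 2 in GFP myotubes (1672) and 2 in GFP-PGC-1α myotubes (1866). Leaving out 1 array gave 5 to 8 for the construct without DFO, 4 to 7 with DFO, 3 to 7 for DFO in GFP, 5 to 7 for DFO in GFP-PGC-1α, 0 to 0 for the interaction and 4 to 6 for both together.

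Spike-in scaling also turned the share of higher among called genes to 85.6% (51.0% as deposited) for the construct without DFO, 89.3% (36.6%) with DFO, 76.0% (44.6%) for DFO in GFP-PGC-1α myotubes and 83.9% (42.4%) for both together. Differences changed sign as follows, and the cause was not tested. Spike-in scaling gave Cpt2 0.36 (0.47 without Trpn) for the construct with DFO, Hadha 0.0837 (0.17) for DFO in GFP-PGC-1α, and interactions of 0.27 (0.42) for Acadvl and 0.0188 (0.17) for Acadl. Quantile normalization gave Acadvl an interaction of 0.0775, and median centring gave Etfdh -0.0069 for DFO in GFP-PGC-1α. The mean of probe sets gave Cpt2 -0.0361 and Etfdh 0.66 for DFO in GFP myotubes, Etfdh -0.0298 for DFO in GFP-PGC-1α, interactions of -0.0388 for Acaa2 and -0.69 for Etfdh, and Cpt2 -0.28 for both together. Without _x_at and _s_at probe sets Acaa2 had an interaction of -0.0539 and -0.0229 for both together. Leaving out 1 array gave interactions of -0.10 to 0.35 for Hadhb and -0.0948 to 0.0596 for Acadvl, Etfdh -0.0234 to 0.0727 for DFO in GFP-PGC-1α and Cpt2 -0.0626 to 0.137 for both together. Of these, 2 had been called: the fall of Etfdh with DFO in GFP myotubes, which became a called rise (adjusted p = 0.0404), and Acaa2 in GFP-PGC-1α+DFO against GFP, no longer called (adjusted p = 0.886).

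Of 33 called changes 21 stayed called without any 1 array, 12 were lost without at least 1 and 0 turned sign. Differences between duplicates correlated between groups at -0.0247 to 0.0322 over all genes, and at -0.110 to 0.221 over genes above the median level. These correlations cannot settle whether the replicate numbers pair the arrays. With the replicate block 7 genes were called for the construct without DFO, 7 with DFO and 6 for DFO in either background. The block gave 0 for the interaction and 6 for both together. There Cpt2 lost its call for the construct without DFO (adjusted p = 0.0512), and for DFO in GFP myotubes Acads lost its call (0.0567) and Hadhb gained one (0.0316). Signal over background limits the dim probe sets.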
